A study of Mus musculus with 5 samples.

Results

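The Fc gamma receptors and their signalling partners were followed through a small stroke of the mouse striatum as 6 genes, matched by symbol among the 19221 genes of the deposited table. They are the activating receptor genes Fcgr1, Fcgr3 and Fcgr4, the inhibitory receptor gene Fcgr2b, the gene Fcer1g of the common gamma chain, and Syk, which encodes the kinase that the chain recruits. The 6 genes were chosen by name and not by their values, and all 6 passed a filter of at least 1 RPKM (reads per kilobase of exon, per unit of library size) in at least 1 library, as did 12783 genes in all. Syk and Fcgr2b passed only through stroke libraries, where they were high, so the counts of members below are descriptions.

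The striatum (caudate putamen) came from 9-week-old male C57BL/6 mice. Stroke libraries hold punches of the right side, taken 4 hours, 1, 3 or 10 days after photothrombosis, with tissue of 6 animals pooled into 1 library at each time. Photothrombosis used rose bengal (100 mg/kg) and 2 min of light (532 nm, 30 mW) from a fibre 3 mm under the dura, which clots the lit vessels. The sham library mixed left-side punches of the operated mice, where fibre and light were applied before the dye, so this reference is tissue that a fibre had entered in mice with a stroke on the other side, and the sources used here do not say which times it mixed. Each group is 1 library, so no difference below has a replicate check, no test between conditions was made, and intervals cover counting error only. All comparisons with sham share that library.

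Fc gamma receptors bind the constant part of IgG antibodies and are carried by microglia, macrophages, monocytes and neutrophils, while natural killer cells carry mainly the product of Fcgr3 and B cells that of Fcgr2b. The activating receptors signal through an activation motif (ITAM) on the gamma chain, which Src family kinases phosphorylate and Syk then binds. FcγRIIB, the product of Fcgr2b, has its own inhibitory motif (ITIM), which recruits the phosphatase SHIP1 and dampens that signal, so the relative level of both kinds of receptor is a common way to describe how responsive a phagocyte is to immune complexes.

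Fcgr2b (ENSMUSG00000026656), Fcgr4 (ENSMUSG00000059089), Fcgr3 (ENSMUSG00000059498) and Fcer1g (ENSMUSG00000058715) follow each other within 276 kb of chromosome 1 in GRCm38, at chr1:170958617-170976547, chr1:171018920-171029761, chr1:171051174-171064935 and chr1:171229572-171234365. Fcgr4 is on the plus strand and the others are on the minus strand. Fcgr1 (ENSMUSG00000015947) is at chr3:96282909-96293969 on the minus strand, and Syk (ENSMUSG00000021457) at chr13:52583173-52648792 on the plus strand. The RPKM values refer to the union of annotated exons, which is 5790 bases for Fcgr2b and 9362 for Syk against longest single transcripts of 3544 and 5363 bases. A level of these genes relative to another gene therefore depends on the length used, while the change of such a ratio between libraries does not.

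The 2 genes that the comparison of activating with inhibitory receptors rests on most, Fcgr3 and Fcgr2b, share coding sequence, and the longest identical run is shown because reads within it cannot be assigned to 1 of them. It has 129 bases and crosses from exon 3 to exon 4 in both genes, spanning chr1:171054167-171057792 in Fcgr3 and chr1:170966674-170968081 in Fcgr2b with the intron removed.
Fcgr3 and Fcgr2b: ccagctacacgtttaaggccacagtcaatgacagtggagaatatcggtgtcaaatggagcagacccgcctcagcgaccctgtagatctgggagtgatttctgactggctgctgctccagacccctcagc
Of the 100-base windows of annotated Fcgr3 transcripts, 2.54% also occur in Fcgr2b, and 0.753% of those of Fcgr2b occur in Fcgr3. At 50 bases the shares are 9.58% and 2.92%, and at 150 bases they are 0 in both directions. Of the Fcgr2b windows, 6.95% at 50 bases occur in transcripts of any other gene (146 genes) and 1.92% still do at 150 bases (4 genes). No window of Fcgr1, Fcgr4, Fcer1g or Syk of at least 50 bases occurs in another gene's transcripts. The sources used here give neither the read length nor the rule for reads with several matches. Fcgr2b also shares 155 exon bases with Gm38204, an antisense gene, and they do not say whether counting used strand.

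The promoters of the 4 receptor genes are shown because the data describe how far their transcripts moved together. RefSeq windows of 300 bases on GRCm38.p6 were matched for 6 of 6 genes, and 150 bases are printed, from 100 before to 50 after the start, on the strand of the gene. Capitals mark GAGGAA, a core of sites for PU.1, the ETS-family factor of myeloid cells, or its reverse complement. The windows are chr3:96293920-96294069 (Fcgr1), chr1:171059354-171059503 (Fcgr3, the first of 2 listed starts), chr1:171018826-171018975 (Fcgr4) and chr1:170976022-170976171 (Fcgr2b).
Fcgr1: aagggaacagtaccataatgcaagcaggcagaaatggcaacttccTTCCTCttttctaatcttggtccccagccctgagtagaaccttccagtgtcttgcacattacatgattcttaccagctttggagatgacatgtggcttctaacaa
Fcgr3: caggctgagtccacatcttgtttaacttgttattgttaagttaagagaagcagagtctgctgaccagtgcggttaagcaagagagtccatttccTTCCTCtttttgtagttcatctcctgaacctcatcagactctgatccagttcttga
Fcgr4: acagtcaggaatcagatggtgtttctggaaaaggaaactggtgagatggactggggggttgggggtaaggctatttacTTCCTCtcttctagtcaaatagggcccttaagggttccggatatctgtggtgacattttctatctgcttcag
Fcgr2b: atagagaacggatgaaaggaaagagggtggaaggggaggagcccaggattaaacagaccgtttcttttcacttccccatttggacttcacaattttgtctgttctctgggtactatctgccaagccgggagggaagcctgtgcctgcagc
GAGGAA, the only form of PU.1 site searched, was found in the 300-base windows of Fcgr1, Fcgr3 and Fcgr4. It began at positions -55, -6 and -22 from the start. It was also in 1 of 2 windows of Syk, at -9, but not in those of Fcgr2b and Fcer1g. Of 32851 such windows in the RefSeq table, 28.3% hold it on either strand. The Fcgr4 window holds 1 match to the core of interferon-stimulated response elements (GAAA repeated after a gap of 2 bases) at position -73, as do 3.44% of all windows. TGANTCA, the form of AP-1 sites, was found in none of the windows of the 6 genes and in 7.81% of all windows. The TATA box letters TATAAA were also in none of them, and in 13.6% of all windows. These matches describe letters only.

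Libraries held 42261786 to 48013846 reads. Median-of-ratios scaling moved the median log2 fold of all genes against sham at 4 hours from 0.28 to 0.01, at day 1 from -0.02 to 0.05, at day 3 from 0.12 to 0.01 and at day 10 from 0.07 to -0.04. Ratios between genes of the same library do not depend on it. The label of the tissue was met by its neurons, since all 10 striatal neuron markers listed were analysed and their summed level was 1919 RPKM in sham and then 2459, 953, 1444 and 1637. At day 1, when receptor transcripts were above sham, 6 of these 10 were at least 2-fold lower (median -1.06), against 1.35% of all genes. At day 3, 2 were, against 0.618%. The number at day 1 was 4 with median-of-ratios or trimmed-mean-of-M-values scaling, and 7 without predicted, mitochondrial and small RNA genes. The part of the lower neuron markers in the receptor values was not tested.

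The activating receptors were lowest at 4 hours and highest at days 3 and 10. Fcgr1, the high-affinity receptor for IgG, was at 2.93 RPKM in sham and, from 4 hours to day 10, at 1.13, 3.76, 12.2 and 12.7. Fcgr3, a low-affinity receptor for immune complexes, was at 13.9, 10.2, 20.8, 53.1 and 56.7 RPKM in the same order. Fcgr4, a receptor of intermediate affinity found on monocytes, macrophages and neutrophils, was at 2.73, 0.243, 6.62, 20.8 and 16.7 RPKM. All 3 genes were below sham at 4 hours and above it at the other 3 times, and Fcgr4 had the widest range as a ratio of highest to lowest, from 14 reads at 4 hours to 1106 at day 3.

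Fcgr2b, the inhibitory receptor, was at 1.00 RPKM in sham and then at 0.380, 2.47, 5.30 and 5.45, so it was also below sham at 4 hours and above it later. Fcer1g, which most activating Fc receptors need to reach the cell surface, was at 16.0, 13.9, 50.5, 114 and 80.7 RPKM. Syk was at 0.319, 0.432, 0.473, 1.54 and 1.76 RPKM and was the only gene of the 6 with a value at 4 hours above that of sham. In bulk tissue, fewer cells of a type and less RNA per cell cannot be told apart.

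**Figure D1:**
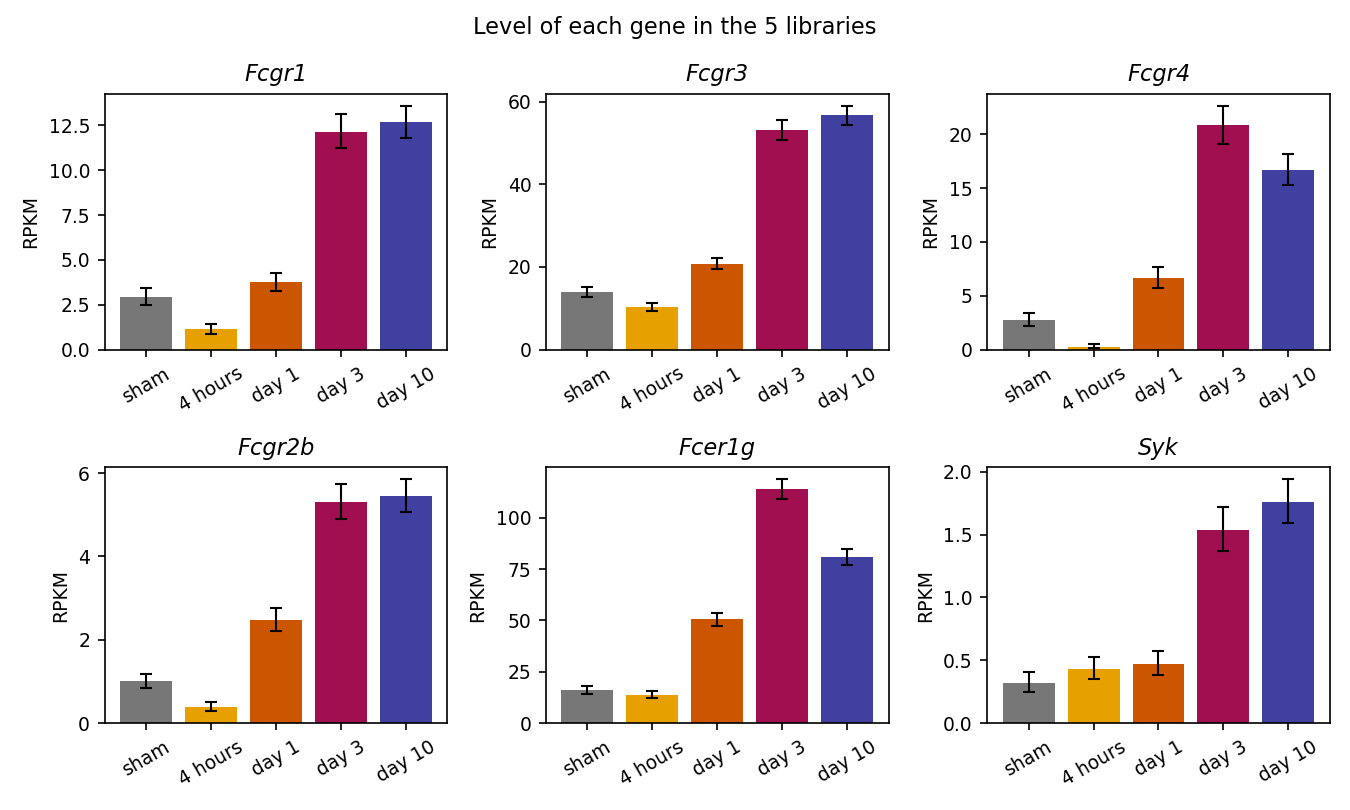
Level of each gene in RPKM (vertical axes, each from 0) in the 5 libraries (bars), with exact Poisson 95% intervals of read pairs as error bars, which cover counting error only. Fcgr4 falls to 0.243 RPKM at 4 hours, and Fcer1g is highest at day 3 with 114 RPKM.

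At 4 hours, transcripts of all 4 receptors were scarcer than in sham by more than counting error, most of all Fcgr4, while the intervals of Fcer1g and Syk included 1. The RPKM ratio to sham was 0.0889 for Fcgr4 (95% counting interval 0.0346 to 0.192), 0.380 for Fcgr2b (0.269 to 0.529) and 0.387 for Fcgr1 (0.288 to 0.516). It was 0.737 for Fcgr3 (0.647 to 0.840), 0.867 for Fcer1g (0.735 to 1.02) and 1.36 for Syk (0.981 to 1.89). On the scale log2((stroke RPKM + 1)/(sham RPKM + 1)), which understates the differences of low genes, Fcgr4 was at -1.59, and 1 of 6 genes was at least 2-fold lower, against 1.09% of all genes. The number was 3 with GFOLD, a shrunken log2 fold in the authors' deposited table, where 1.15% of all genes were at -1 or below. It was 2 after median-of-ratios scaling and 3 with a pseudocount of 0.1. The share of all genes is not given for that scaling or pseudocount, so these counts do not show a stronger difference. None of the 6 was at least 2-fold higher, against 2.20% of all genes (0 by GFOLD, against 2.36%), and the median log2 fold was -0.47 against 0.28 for all genes. Median-of-ratios scaling moved Fcer1g from -0.19 to -0.54 on this scale.

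A number of interferon-induced genes were also lower at 4 hours than in sham. Of 12 listed, 11 were analysed and 6 were at least 2-fold lower, against 1.09% of all genes. Their median was -1.53, against 0.28 for all genes. With a pseudocount of 0.1 the number was 11, and the share of all genes is not given for that setting. Isg15, a ubiquitin-like protein induced by interferon, was at 1.47 against 12.5 RPKM, and the antiviral membrane protein gene Bst2 at 2.84 against 13.8. Gfap, which astrocytes express more when reactive, stood at 26.3 RPKM and at 102 in sham. It was the only 1 of 7 analysed astrocyte markers at least 2-fold lower, with 0 higher and a median of -0.09 for the list. General phagocyte and leukocyte markers had 0 of 11 analysed genes beyond 2-fold and a median of -0.22. The part of these genes or of the sham punches in the receptor values at 4 hours was not tested.

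At day 1 the gamma chain, Fcgr4 and Fcgr2b were above sham, and the other receptors only slightly so. The ratio to sham was 3.16 for Fcer1g (counting interval 2.78 to 3.60), 2.47 for Fcgr2b (2.01 to 3.05) and 2.42 for Fcgr4 (1.85 to 3.20). It was 1.5 for Fcgr3 (1.34 to 1.68), 1.48 for Syk (1.08 to 2.05) and 1.28 for Fcgr1 (1.05 to 1.57). Of the 6 genes, 2 were at least 2-fold higher on the pseudocount scale, Fcer1g at 1.60 and Fcgr4 at 1.03, against 3.33% of all genes, and 0 were lower, against 1.35%. By GFOLD the 2 were Fcer1g and Fcgr2b, against 3.12% of all genes, and 0 were lower, against 1.67%. Only 96 of the 12783 genes had a larger log2 fold than Fcer1g at this time. Fcgr4 lay near the size limit, and 1 gene remained after predicted, mitochondrial and small RNA genes were left out of the total.

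At day 3 all 6 genes were more than 3-fold above sham by RPKM. The ratio was 7.63 for Fcgr4 (6.01 to 9.82), 7.12 for Fcer1g (6.32 to 8.04), 5.30 for Fcgr2b (4.39 to 6.45) and 4.82 for Syk (3.69 to 6.38). It was 4.15 for Fcgr1 (3.50 to 4.94) and 3.83 for Fcgr3 (3.48 to 4.22). On the pseudocount scale 5 of 6 were at least 2-fold higher, against 9.04% of all genes, and 0 were lower, against 0.618%. Syk, at a low level, was at 0.94 on that scale. By GFOLD, 6 were higher (9.76% of all genes) and 0 lower (0.728%). The median of the 6 log2 folds with pseudocount was 1.80, against 0.12 for all genes.

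At day 10 the genes stood at different points relative to day 3. Ratios to sham were 6.11 for Fcgr4 (4.80 to 7.87), 5.52 for Syk (4.25 to 7.27), 5.45 for Fcgr2b (4.52 to 6.62) and 5.04 for Fcer1g (4.47 to 5.71). They were 4.32 for Fcgr1 (3.66 to 5.13) and 4.09 for Fcgr3 (3.73 to 4.50). On the pseudocount scale 6 of 6 were at least 2-fold higher, against 4.20% of all genes, and 0 were lower, against 0.172%, and the median was 1.88 against 0.07. GFOLD gave the same counts, 6 higher (5.54% of all genes) and 0 lower (0.0782%), while both scalings gave 5 higher. Compared with day 3, Fcer1g was at 0.709 of its level (0.664 to 0.756) and Fcgr4 at 0.80 (0.707 to 0.904). Fcgr1, Fcgr2b and Syk were at 1.04 (0.940 to 1.16), 1.03 (0.925 to 1.14) and 1.15 (0.984 to 1.33), and Fcgr3 at 1.07 (1.01 to 1.13).

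From 1 time to the next, numbers of genes refer to the pseudocount scale and ratios to RPKM. Day 1 was at least 2-fold above 4 hours in 4 of 6 genes, against 2.70% of all genes, and 0 were lower, against 5.70%. The ratio was 27.3 for Fcgr4 (13 to 68.8), which rests on the 14 reads at 4 hours, and 6.5 for Fcgr2b (4.82 to 8.93). From day 1 to day 3 again 4 of 6 were at least 2-fold higher, against 7.46% of all genes, and 0 lower, against 0.939%. Among the 4 was Fcgr1, at a ratio of 3.23 (2.78 to 3.78). Syk, at a ratio of 3.25 (2.59 to 4.11), and Fcgr2b, at 2.15 (1.88 to 2.46), were not. Their log2 folds on the pseudocount scale were 0.78 and 0.86. From day 3 to day 10, 0 of 6 were at least 2-fold higher (0.626% of all genes) and 0 lower (2.77%).

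Set against the inhibitory receptor, the activating receptors did not move as 1 group. The RPKM ratio of Fcgr3 to Fcgr2b was 13.9 in sham and, from 4 hours to day 10, 26.9, 8.43, 10.0 and 10.4. That of Fcgr1 to Fcgr2b was 2.93, 2.99, 1.52, 2.29 and 2.33 in the same order. That of Fcgr4 to Fcgr2b was 2.73, 0.639, 2.68, 3.93 and 3.06. At day 1, Fcgr1 and Fcgr3 had lost ground to Fcgr2b, and at 4 hours Fcgr3 and Fcgr4 had moved in opposite directions.

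Relative to sham, the ratio of Fcgr3 to Fcgr2b was 1.94 times as high at 4 hours (exact conditional 95% interval 1.37 to 2.85) and 0.608 times at day 1 (0.479 to 0.769). It stayed below sham at day 3 (0.723, 0.581 to 0.897) and day 10 (0.750, 0.605 to 0.928). For Fcgr1 the change was 1.02 at 4 hours (0.662 to 1.64), 0.519 at day 1 (0.389 to 0.701), 0.782 at day 3 (0.604 to 1.02) and 0.793 at day 10 (0.614 to 1.03). For Fcgr4 it was 0.234 at 4 hours (0.0865 to 0.562), 0.982 at day 1 (0.693 to 1.39), 1.44 at day 3 (1.05 to 1.98) and 1.12 at day 10 (0.818 to 1.54). Fcgr4 was thus the only one of the 3 whose ratio to Fcgr2b was above that of sham at day 3.

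**Figure D2:**
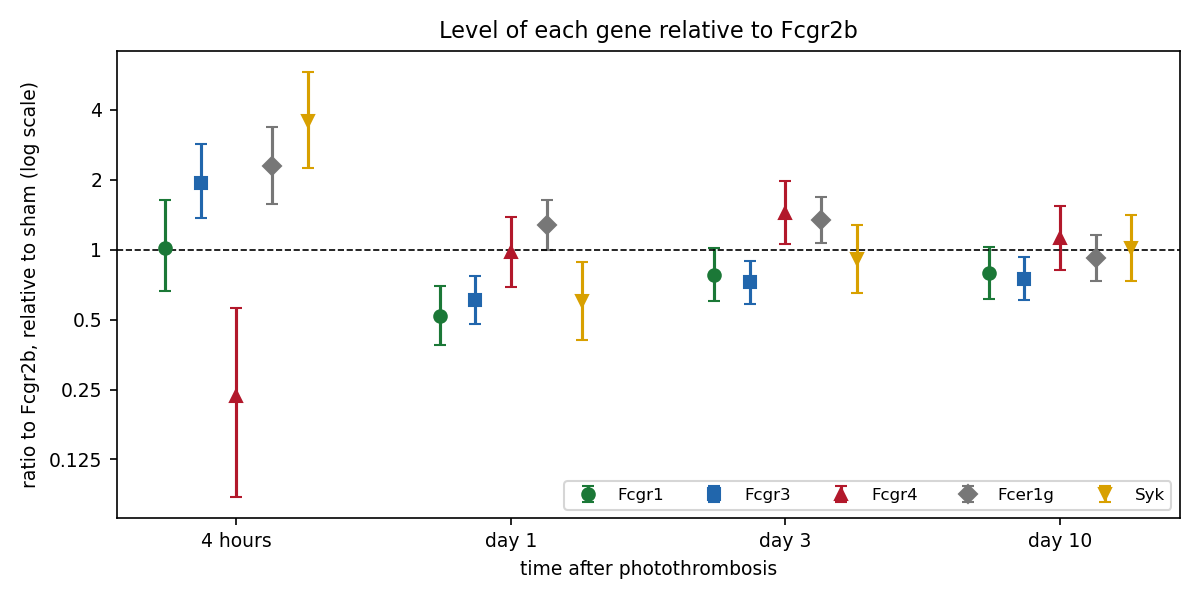
RPKM ratio of each gene to Fcgr2b relative to the same ratio in sham (vertical log axis, dashed line at 1) at the 4 times, with exact conditional 95% intervals of read pairs that cover counting error only. Fcgr3 and Fcgr1 lie below 1 at day 1 (0.608 and 0.519), and Fcgr4 lies at 0.234 at 4 hours and 1.44 at day 3.

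Summed over the 3 activating receptors, the ratio to Fcgr2b was 19.5 in sham (approximate 95% counting interval 16.2 to 23.5), 30.5 at 4 hours (22.9 to 40.8), then 12.6 (11.2 to 14.3), 16.2 (14.9 to 17.7) and, on day 10, 15.8 (14.6 to 17.1). The log2 difference from sham was 0.65 at 4 hours (0.15 to 1.14), then -0.63 (-0.95 to -0.31), -0.27 (-0.56 to 0.03) and -0.31 (-0.60 to -0.02). The sum is mostly Fcgr3, which made up 58.1% to 85.3% of receptor RPKM in the 5 libraries. At 4 hours the direction turned without Fcgr3 (-0.64) or with equal weight for each receptor (-0.37), and at day 3 it turned without Fcgr3 (0.14). With a pseudocount of 1 RPKM it turned at 4 hours (-0.091), day 3 (0.33) and day 10 (0.29). The lower ratio of the sum to Fcgr2b at day 1 kept its direction under each of these.

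The make-up of the receptor transcripts shifted mainly between Fcgr3 and Fcgr4. Fcgr3 held 67.5% of the RPKM of the 4 receptors in sham and then 85.3%, 61.8%, 58.1% and 62.0%. Fcgr4 held 13.3% in sham and then 2.03%, 19.7%, 22.8% and 18.2%. Fcgr1 held 9.48% to 14.3%. Fcgr2b held 4.87% in sham and then 3.17%, 7.33%, 5.80% and 5.96%, its largest share on day 1. The ratio of Fcgr4 to Fcgr3 relative to sham was 0.121 at 4 hours (0.0464 to 0.264), then 1.62 (1.20 to 2.17), 1.99 (1.53 to 2.61) and 1.49 (1.15 to 1.95).

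**Figure D3:**
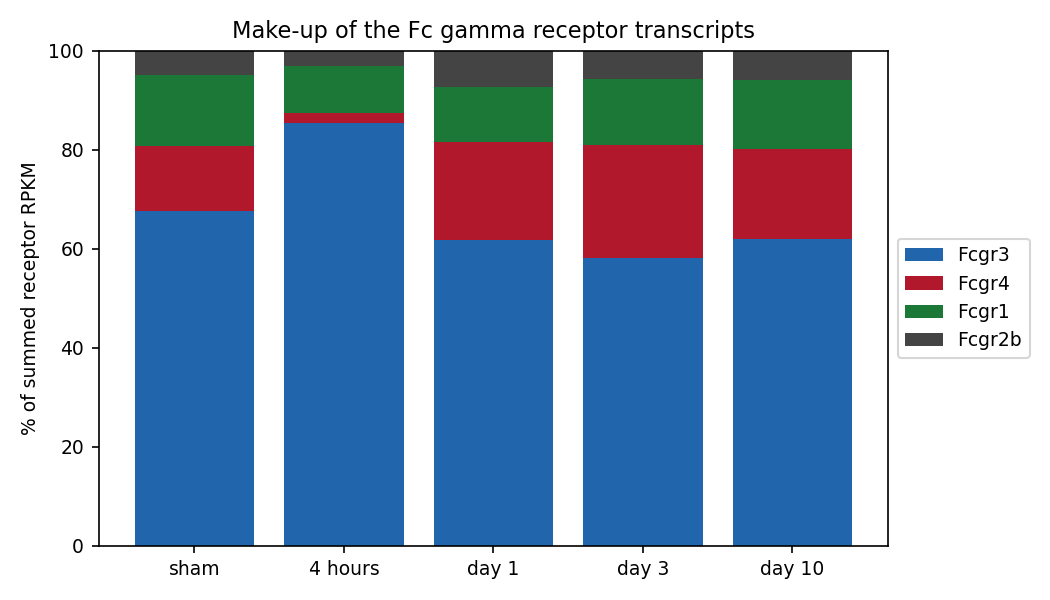
Share of each receptor gene in the summed RPKM of the 4 receptors (vertical axis, percent) in the 5 libraries (bars). Fcgr3 is the largest share in each library, and Fcgr4 ranges from 2.03% at 4 hours to 22.8% at day 3.

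The signalling partners did not keep pace with one another. Fcer1g per summed activating receptor was 0.819 in sham and then 1.20, 1.62, 1.32 and 0.938, as a ratio of RPKM. The ratio of Fcer1g to Fcgr3 was 2.11 times that of sham at day 1 (1.78 to 2.49), 1.86 at day 3 (1.59 to 2.17) and 1.23 at day 10 (1.05 to 1.44). The ratio of Syk to Fcer1g was 0.470 times that of sham at day 1 (0.331 to 0.663), 0.678 at day 3 (0.504 to 0.920) and 1.09 at day 10 (0.820 to 1.48). Relative to sham, the gamma chain was thus ahead of Fcgr3 and of Syk at days 1 and 3, and by less or not beyond counting error at day 10.

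Ordered by level, Fcer1g and Fcgr3 were the highest of the 6 in every library, and their counting intervals overlapped in sham (14.3 to 17.9 and 12.7 to 15.1 RPKM) but in no stroke library. Fcgr1 and Fcgr4 could not be ordered in sham (2.51 to 3.41 and 2.15 to 3.41 RPKM), whereas Fcgr4 was the higher of the pair at days 1, 3 and 10. Syk was the lowest in 4 of 5 libraries. At 4 hours Fcgr2b (0.282 to 0.500) and Syk (0.349 to 0.530) overlapped with each other, and Fcgr4 (0.0975 to 0.500) with both.

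General phagocyte markers were set beside the receptors, since microglia and other phagocytes carry both. The geometric mean of 10 markers at 1 RPKM or more in every library, among them Laptm5, Ctss and Cd68, was 6.12 RPKM in sham and then 5.62, 6.25, 26.8 and 29.9. Per unit of this mean, at day 1 Fcer1g was 3.09 times its sham value, Fcgr2b 2.42, Fcgr4 2.37, Fcgr3 1.47, Syk 1.45 and Fcgr1 1.25. At day 3 the 6 genes lay between 0.874 (Fcgr3) and 1.74 (Fcgr4), and at day 10 between 0.838 (Fcgr3) and 1.25 (Fcgr4). At 4 hours Fcgr4 was at 0.0968, Fcgr2b at 0.414 and Fcgr1 at 0.421. At day 1 the markers in the mean went both ways, with Cd68, a lysosomal protein of phagocytes, at 24.6 against 12.8 RPKM in sham, and Laptm5, another lysosomal protein, at 14.2 against 21.7. The values for day 1 therefore depend on the markers chosen, and Fcgr3, Syk and Fcgr1 were not ahead of Cd68.

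**Figure D4:**
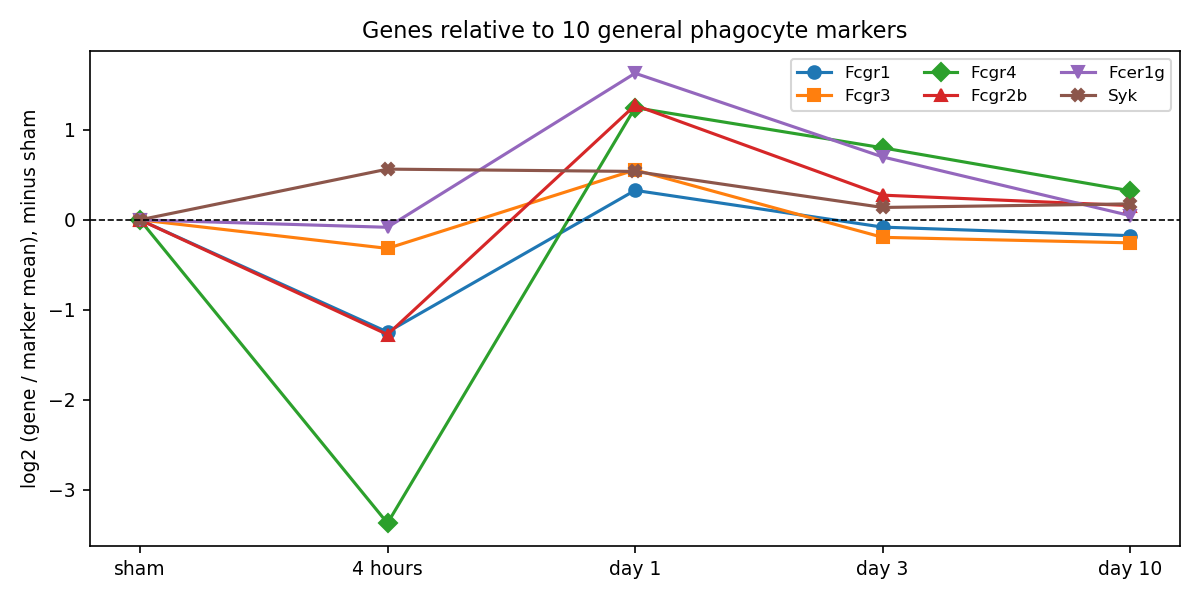
Log2 of each gene's RPKM over the geometric mean of 10 general phagocyte markers, minus the value in sham (vertical axis), in the 5 libraries. Fcer1g, Fcgr2b and Fcgr4 stand highest at day 1 (3.09, 2.42 and 2.37 times sham), and the 6 genes lie between 0.838 and 1.25 times sham at day 10.

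Markers of cells that could carry the receptors moved at different times. Homeostatic microglia markers had 3 of 12 genes at least 2-fold lower at day 1 (7 with a pseudocount of 0.1) and 7 and 8 higher at days 3 and 10, and their summed level was 74.2 RPKM in sham and then 83.6, 39.8, 303 and 281. Neutrophil markers had 3 of 4 analysed genes (of 13 listed, 7 with values here) higher at day 1, led by S100a9 at 93.4 against 5.50 RPKM. They summed to 155 RPKM there, mostly S100a9 and S100a8 (53.0), against 7.54 to 19.0 in the other libraries. Csf3r, the other analysed marker, had a later course, at 1.21 RPKM in sham, 1.26 at day 1, 5.19 at day 3 and 8.89 at day 10. Ngp, Mmp9 and Cxcr2 were below 1 RPKM in every library. Monocyte and macrophage markers summed to 24.0, 17.3, 77.8, 150 and 283 RPKM, of which Lyz2, the macrophage lysozyme, was 245 at day 10. Not all of the others had that course. Arg1, the arginase of some macrophages, was at 0.160 RPKM in sham, 10.2 at day 3 and 0.0841 at day 10, and Cd14, a lipopolysaccharide co-receptor, was highest at day 1 (42.7). The number of these markers at least 2-fold higher was 0, 3, 4 and 3 of 6 analysed at the 4 times, and their median log2 fold was 1.98 at day 3 and 1.23 at day 10. Ccr2, Mrc1 and Cd163 stayed below 1 RPKM throughout, and so did Ptprc, the pan-leukocyte gene CD45. Ptprc was at 0.0267 RPKM in sham (22 reads), then at 0.00832, 0.0236, 0.199 and, on day 10, 0.265 (233 reads). Which of these cells the receptor transcripts came from was not tested.

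Few markers of B cells, natural killer cells, mast cells and dendritic cells passed the filter. Of 10 B cell and plasma cell markers 5 had values here and 3 were analysed, and Cd79a, part of the B cell receptor, was at 0.0306 to 0.252 RPKM while Cd79b reached 2.13 at day 3. Of 9 natural killer cell markers 4 had values here and 2 were analysed, with Nkg7 at 2.39 RPKM at day 10 and Gzma at 1.98 at day 3. Values were at hand for 2 of 8 mast cell and basophil markers, Kit and Hdc, and neither passed, and for 3 of 7 dendritic cell markers, of which Itgax passed, at 1.49 RPKM at day 10.

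Further along the pathway, several kinases and adaptors of phagocytes were above sham at days 3 and 10. Of 20 listed proximal kinases and adaptors, 15 were analysed, and 0, 0, 6 and 5 were at least 2-fold higher at the 4 times, with 0 lower and medians of -0.01, 0.18, 0.96 and 0.92. With a pseudocount of 0.1 or 0.5 the numbers at days 3 and 10 were 11 and 11. The shares of all genes higher were 2.20%, 3.33%, 9.04% and 4.20%, and a listed gene could pass the filter through its stroke level alone, so the counts of lists are descriptions. Lat2, an adaptor of myeloid and B cells, was at 1.20 RPKM in sham and 12.3 at day 3 (log2 fold 2.60). Plcg2, the phospholipase downstream of Syk, was at 0.870 and 4.27 (1.49), and Vav1, an exchange factor for Rac proteins, at 0.833 and 3.97 (1.44).

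Part of the inhibitory arm behind Fcgr2b was likewise higher at the late times. Of 15 listed phosphatases and adaptors, 10 were analysed, with 0, 0, 6 and 4 higher, 0 lower and medians of 0.06, 0.10, 1.19 and 0.74. Inpp5d, which encodes SHIP1, was at 1.35 RPKM in sham and then at 1.60, 1.05, 5.47 and 4.90. Ptpn6, the SHP-1 phosphatase of other inhibitory receptors, was at 2.03, 1.25, 2.57, 12.7 and 12.2 RPKM. The adaptor genes Dok3 and Dok1 were at log2 folds of 1.61 and 1.43 at day 3. Inpp5d was not above sham at day 1, when Fcgr2b was.

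Several effector genes of phagocytosis were also at least 2-fold higher than sham at days 3 and 10. Of 6 listed phagocyte oxidase genes 5 were analysed, with 0, 0, 5 and 5 at least 2-fold higher than sham. Cyba, the p22phox subunit, went from 8.06 RPKM in sham to 84.9 at day 3 (log2 fold 3.25), Rac2, the leukocyte Rac protein, from 1.39 to 11.6 (2.40), and Ncf1 from 2.47 to 12.6 (1.97). Cybb, the catalytic subunit, was below 1 RPKM in every library, but it was at 0.0307 in sham (8 reads), 0.228 at day 3 and 0.577 at day 10 (161 reads). Of 19 listed genes of PI3K and the actin machinery 16 were analysed, with 2, 0, 5 and 4 higher. The pair at 4 hours was Gsn, the actin-severing gelsolin (61.7 against 23.5 RPKM), and Cdc42, named after its values were seen (40.9 against 19.2), and both calls ended under median-of-ratios and trimmed-mean-of-M-values scaling (0 of 16), and 1 remained without predicted, mitochondrial and small RNA genes. Myo1f, a leukocyte myosin, had a log2 fold of 1.60 at day 10.

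**Figure D5:**
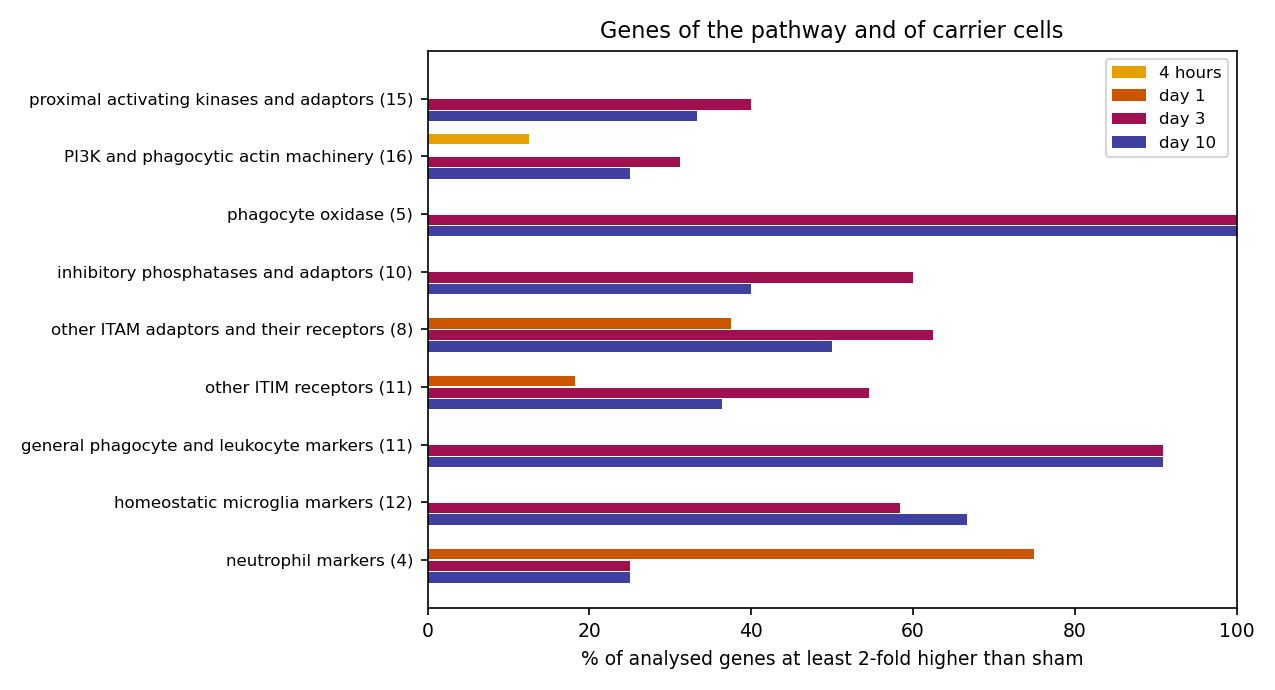
Share of the analysed genes of each list that were at least 2-fold higher than sham (horizontal axis, percent) at the 4 times (bars), with the number analysed after each name. For phagocyte oxidase genes bars stand only at days 3 and 10 (5 of 5 genes), while neutrophil markers are highest at day 1 (3 of 4 genes).

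Other receptors that signal through ITAM adaptors or carry an ITIM were compared as neighbours of the family. Tyrobp, the DAP12 adaptor that also recruits Syk, was at 43.9 RPKM in sham and then at 28.7, 102, 293 and 335, so it was highest at day 10, when Fcer1g had come down from day 3. Of 17 listed genes of ITAM adaptors and their receptors 8 were analysed, with 0, 3, 5 and 4 higher. Trem2, a lipid receptor that uses DAP12, was at 6.52 RPKM in sham, 2.94 at day 1 and 73.2 at day 10. Clec7a, the beta-glucan receptor, had a log2 fold of 2.14 at day 10. Of 19 listed ITIM receptors 11 were analysed, with 0, 2, 6 and 4 higher, among them Cd300a (1.58 at day 3 and 1.73 at day 10), Lilrb4a (1.42 at day 1 and 1.65 at day 3) and Pirb (1.51 at day 3). Other Fc receptors were few. Fcgrt, the neonatal receptor that recycles IgG, was at 6.51, 7.58, 4.49, 17.5 and 11.8 RPKM, and Fcrls, a microglial Fc receptor-like gene, at 8.54, 10.6, 12.6, 90.7 and 52.6.

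The genes whose 4 log2 folds were most like those of each member were found by the root mean square difference over the 4 times, all of which share the sham library. For Fcgr1 they were Zbp1 (0.14), Ube2l6 (0.14) and Rab3il1 (0.17). For Fcgr3 they were Gngt2 (0.10), Gpx3 (0.11) and Folr2 (0.11), and for Fcgr4 they were Pycard (0.29), Ifitm3 (0.36) and Gm45205 (0.40). For Fcgr2b they were Gpr84 (0.10), Gm45717 (0.12) and Ncf4 (0.16), for Fcer1g Clic1 (0.27), Cd63-ps (0.28) and Slamf9 (0.30), and for Syk Acp5 (0.08), Cryzl2 (0.08) and Gm15432 (0.08). Within the family the closest pair was Fcgr2b and Fcgr3 (0.22), with 10 genes nearer to each of them, but with a pseudocount of 0.1 it was Fcgr3 and Syk (0.40). Fcgr4, Fcer1g and Syk were 0.69, 0.71 and 0.66 from their nearest other member, with 23, 67 and 4782 genes nearer. With a pseudocount of 0.1 the numbers of genes nearer were 22, 64 and 84, so the number for Syk depends on the pseudocount.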

How the data were processed

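The authors deposited 1 table of RPKM values for 5 libraries, with a log2 fold and a GFOLD value (setting 0.01) for each pair, per the file headers. The deposited false discovery rates are 1 for every gene and the deposited p-values name no test, so neither was used. Per the labels' protocols, Trizol served to extract total RNA and a VAHTS kit to make libraries. Trimmomatic 0.36, StringTie 1.3.4d, HISAT2 2.1.0 and build GRCm38 are named, with no role, in the submitters' processing notes. Those sources do not name the annotation version.

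Identifiers were matched to GENCODE mouse release 21 (19158 of 19221, 99.7%). RPKM times union exon length came to a whole number (tolerance 0.02) for 90.4% to 90.5% of values below 5000 reads, and for all 6 members in all 5 libraries. Library totals came from these steps. Reads were divided by 2 for intervals, since both mates of a pair may be counted, and reads copied in PCR are not independent. Folds were log2((stroke RPKM + 1)/(sham RPKM + 1)) over the 12783 genes that reached 1 RPKM anywhere, and a log2 fold of 1 in size counted as 2-fold. Intervals of a ratio are exact conditional 95% intervals, and those of the summed balance use a Poisson approximation. Scripts used Python 3.11.15, numpy 2.4.6, pandas 2.3.3 and scipy 1.17.1, and were tested on simulated data. Members were chosen by symbol. The 21 gene lists (247 entries, of which 203 have values here and 147 were analysed) share members such as Coro1a, Rac2 and Cx3cr1. Of each list, genes were named from the up to 4 with the largest fold at any time, with genes below 1 RPKM in every library where a role turns on their absence, and others only as said. The 3 genes nearest to each member were named. Members and lists were chosen with earlier results of these data known. Of symbols that stand in the table more than 1 time (Itgam, Lilrb4a), the row whose identifier carries the symbol in the annotation was used. Alternatives were other scalings, pseudocounts, filters and size limits, the GFOLD value, and other make-ups of the balance. Some motif and gene results are not reported here.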

Additional observations from a re-analysis of the deposited data

How the results depend on the processing

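No paired analysis was possible because each group is 1 library. Shares of all genes are given only for the main setting and for GFOLD, so counts at other settings are descriptions. The number of members at least 2-fold lower at 4 hours (1) was 2 with median-of-ratios scaling, trimmed-mean-of-M-values scaling or a pseudocount of 0.5, 3 with a pseudocount of 0.1 or the authors' deposited GFOLD value, and 0 at a log2 size limit of 2. The number higher at day 1 (2) was 1 without predicted, mitochondrial and small RNA genes or at a limit of 1.5, and 0 at a limit of 2. At a limit of 2 it was 2 at day 3 (5 as deposited) and 2 at day 10 (6). With the 4-hour library as reference, chosen after seeing the data, it was 4 at day 1. The log2 balance of summed activating receptors against Fcgr2b at 4 hours (0.65) turned with equal weights (-0.37), without Fcgr3 (-0.64) and with a pseudocount of 1 RPKM (-0.091). With that pseudocount, which is of the size of Fcgr2b itself, it was -0.19 at day 1 (-0.63), 0.33 at day 3 (-0.27) and 0.29 at day 10 (-0.31), and without Fcgr3 it was 0.14 at day 3. Against the 4-hour library it was -1.27, -0.911 and -0.95 at days 1, 3 and 10. The number higher at day 10 was 5 with either scaling or at a limit of 1.5. Of 168 list counts, 37 moved by over 1.5 times with a pseudocount of 0.1, 16 with 0.5, 17 with a floor of 5 RPKM, 10 and 9 with the scalings, 8 without predicted, mitochondrial and small RNA genes, and 0 without a filter. Leaving out Fcgr1 or Fcgr4 moved no balance beyond counting error. Of the 3 nearest genes named for each member, at least 2 stayed with a pseudocount of 0.1 for 2 of 6 members. No log2 fold of a member against sham changed sign under these alternatives. Depth limits Fcgr4 at 4 hours (14 reads) most.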

Other observations

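Antibody genes, of which the IgG heavy chains encode the ligands of these receptors, were also listed. Of 12 listed immunoglobulin genes 4 were analysed. From sham to day 10, Ighm, the heavy chain of IgM, was at 8.12, 14.7, 16.5, 14.5 and 10.9 RPKM. Igkc, the kappa light chain, was at 0.460, 0.573, 1.91, 0.400 and 5.29 RPKM, and was at least 2-fold higher than sham at day 10 (log2 fold 2.11). Igha, the heavy chain of IgA, was at 0.234 RPKM in sham and 1.44 at day 10 (0.98). With a pseudocount of 0.1 or 0.5, 2 of the 4 were higher at day 10, and both scalings gave 2 at day 1. Of the IgG heavy chains, Ighg2c was at 0.517 to 1.33 RPKM and Ighg1 below 1 RPKM in every library. Transcript levels say nothing of antibody that enters from blood.

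Of 15 listed cytokines, receptors and factors known to raise or lower Fc gamma receptor expression, 11 were analysed, with 0, 1, 6 and 5 at least 2-fold higher at the 4 times and 0 lower. C5ar1, the receptor for complement C5a, was at 1.20 RPKM in sham, 5.15 at day 1 and 10.1 at day 3, and was the one at least 2-fold higher at day 1. Spi1, which encodes PU.1, was at 3.56 RPKM in sham and then at 2.38, 5.29, 19.8 and 14.7. Tgfb1 had a log2 fold of 1.79 at day 3 and Il10ra of 1.71 at day 10.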
